A study of Mus musculus with 9 samples.

Results

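The genes described here are the colony-stimulating factors and their receptors in the dermis of mouse ears. Members were taken by symbol from the deposited table of read counts, which gave 8 of its 52550 genes. The ligands were Csf1, Il34, Csf2 and Csf3, and the receptor genes were Csf1r, Csf2ra, Csf2rb and Csf3r. All 8 members passed the filter on low counts, which left 22430 genes for testing. Csf2rb2, a close copy of Csf2rb, is given beside it but was not counted as a member.

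Messenger RNA was sequenced in 9 libraries, 3 in each of 3 groups, from C57BL/6 mice (C57BL/6J in the methods) that the labels give as wild type (written "wide type") and 8 weeks old. VAS+H2O, the control, had vaseline on the ear and ddH2O by gavage. IMQ+H2O, the psoriasis-like model, had imiquimod (IMQ), a Toll-like receptor agonist, and ddH2O. IMQ+XYF had imiquimod together with a herbal decoction, Xiao-Yin-Fang (XYF), at 23.3 mg/g. In every group the topical agent was given for 5 days and the gavage of 200 μl for 10 days. The methods give the mice as male and the RNA as taken from ear sheets of a pair of animals. No source states whether a library holds pooled or single animals, so the p-values measure only the spread between these samples.

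Csf1 and Il34 are alternative ligands of Csf1r, a receptor tyrosine kinase on which macrophages, and in the epidermis Langerhans cells, depend. Csf2, or GM-CSF, binds a pair of chains, Csf2ra, which is specific to it, and Csf2rb, the common beta chain that also serves the receptors of IL-3 and IL-5. Csf3, or G-CSF, acts through Csf3r, which is carried mainly by neutrophils and their precursors. In skin, fibroblasts, endothelium and keratinocytes are known sources of several of these ligands, while the receptors sit mostly on myeloid cells.

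Total counts ran from 28756305 to 79836881 per library. The defining markers of fibroblasts, the main cell of the dermis, summed to between 9125 and 19114 CPM (counts scaled to a common library size) per library. The 6 keratinocyte markers were present too, at between 2561 and 16495 CPM, and were highest in IMQ+XYF library 1. Keratinocyte RNA was therefore part of the libraries labelled dermis. Levels below are CPM scaled by TMM factors (trimmed mean of M values). A gene was called where the Benjamini-Hochberg adjusted p of edgeR's quasi-likelihood test was 0.05 or lower and the log2 fold change was at least 1 in size. Intervals of log2 fold changes cover 95%.

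The promoter sequences of Csf1, the member with the highest mean level per kilobase, and Csf3r, the member called, are shown as those on which the results below turn. They are RefSeq windows on GRCm38.p6, written 5′ to 3′ on the strand of the gene and upstream of its start. Csf1 lies on the minus strand and its 250 bases cover chr3:107760470-107760719. Csf3r lies on the plus strand, and the 141 bases at chr4:126024409-126024549 are given, because the 109 bases between them and the RefSeq start fall inside the gene as GENCODE annotates it. Capitals mark matches to a plain form of the NF-kB motif, GGGA and CC with 4 bases of any kind between them, on either strand.
Csf1: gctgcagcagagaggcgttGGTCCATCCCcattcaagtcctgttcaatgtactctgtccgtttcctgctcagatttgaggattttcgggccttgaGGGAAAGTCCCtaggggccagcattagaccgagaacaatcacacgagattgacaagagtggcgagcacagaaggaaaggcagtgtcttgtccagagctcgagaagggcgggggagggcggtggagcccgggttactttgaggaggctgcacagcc
Csf3r: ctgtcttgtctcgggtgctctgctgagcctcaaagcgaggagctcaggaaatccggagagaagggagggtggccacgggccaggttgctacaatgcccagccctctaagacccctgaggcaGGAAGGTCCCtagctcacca
The Csf1 window held 3 matches, of which those that begin 155 and 154 bases before the start overlap on opposite strands. The Csf3r window held 1, beginning 129 bases before the RefSeq start. In the full windows of 250 bases, the motif had a match in 17.6% of 32851 promoters. GAGGAA, a plain form of the motif of PU.1, was absent from the Csf1 window and had 1 match in the full Csf3r window, in the stretch not printed, against 23.3% of promoters. Of the 8 members, 4 had a promoter in the RefSeq table, namely Csf1, Csf2, Csf2ra and Csf3r, and the others were Csf3, Il34, Csf1r and Csf2rb. Among the other windows, GAGGAA had 2 matches in that of Csf2ra and none in that of Csf2, and the NF-kB motif had none in either. Plain motifs of C/EBP, AP-1, STAT and the TATA box were searched too and had no match in the full Csf1 and Csf3r windows. That of C/EBP had 1 match each in the windows of Csf2 and Csf2ra, against 36.8% of promoters. A match is a description of letters and no evidence of binding.

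Among the ligands, Csf1, which keeps most tissue macrophages alive, had the highest mean per length in every group, though in IMQ+H2O libraries 2 and 3 Csf3 was above it. In the VAS+H2O libraries 1, 2 and 3 its level was 70.9, 136 and 123 CPM. In IMQ+H2O it was 92.1, 147 and 128 CPM, and in IMQ+XYF 106, 91.5 and 127 CPM. The groups overlapped, and the lowest of the 9 libraries was a control. The log2 fold change was 0.15 for IMQ+H2O against VAS+H2O, with an interval from -0.44 to 0.74, and -0.18 for IMQ+XYF against IMQ+H2O, with an interval from -0.77 to 0.41. Csf1 (ENSMUSG00000014599) lies at chr3:107741048-107760469.

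Il34, the other ligand of Csf1r and in skin a product of keratinocytes, was lower than Csf1 in every library. Its coefficient of variation was 12.9% in VAS+H2O and 4.48% in IMQ+H2O, against 31.4% and 22.7% for Csf1, and 32.6% in IMQ+XYF, against 16.6%. Its level was 16.0, 19.1 and 20.7 CPM in VAS+H2O and 19.2, 17.5 and 18.7 CPM in IMQ+H2O. In IMQ+XYF it was 20.5, 10.3 and 16.9 CPM, and library 2 of that group was the lowest of the 9. The IMQ+H2O libraries lay inside the range of the controls, and the log2 fold change was -0.01, from -0.53 to 0.50. For IMQ+XYF against IMQ+H2O it was -0.22, from -0.73 to 0.30. Il34 (ENSMUSG00000031750) lies at chr8:110741829-110805924.

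Csf2, a product of activated lymphocytes and of skin cells under stress, was barely detected. It had 0, 7 and 26 counts in the VAS+H2O libraries, 5, 15 and 4 in IMQ+H2O, and 25, 8 and 17 in IMQ+XYF. A count of 0 allows up to 3 counts, or 0.0732 CPM, in VAS+H2O library 1, counting error only. No group mean exceeded 0.250 CPM, and the interval for IMQ+H2O against VAS+H2O, from -2.12 to 2.32 on the log2 scale, was wide. At this depth, a change of up to those bounds could not be told from none. Csf2 (ENSMUSG00000018916) lies at chr11:54247271-54249667, with Il3 15635 bases away.

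Csf3, which drives the production and release of neutrophils, had a coefficient of variation of 50.5% to 87.1% within groups, the highest of the members in both imiquimod groups and below that of Csf2 alone in VAS+H2O. It stood at 0.776, 14.2 and 8.16 CPM in VAS+H2O and at 6.27, 51.8 and 37.5 CPM in IMQ+H2O. In IMQ+XYF it stood at 19.1, 7.42 and 23.9 CPM. IMQ+H2O library 1 fell within the range of the controls, while libraries 2 and 3 were above every other library. The mean was 31.9 ± 23.3 CPM (SD, n = 3) in IMQ+H2O against 7.70 ± 6.71 in VAS+H2O. The log2 fold change of 2.05 (SE 0.98) had an interval from -0.17 to 4.27 and did not pass, with an adjusted p of 0.269 by edgeR. For IMQ+XYF against IMQ+H2O it was -0.92, with an interval from -3.06 to 1.219. It was -0.17 with the replicate number as a block, and -0.38 without IMQ+H2O library 2 and -0.54 without IMQ+XYF library 2. Csf3 (ENSMUSG00000038067) lies at chr11:98701263-98703629.

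**Figure D1:**
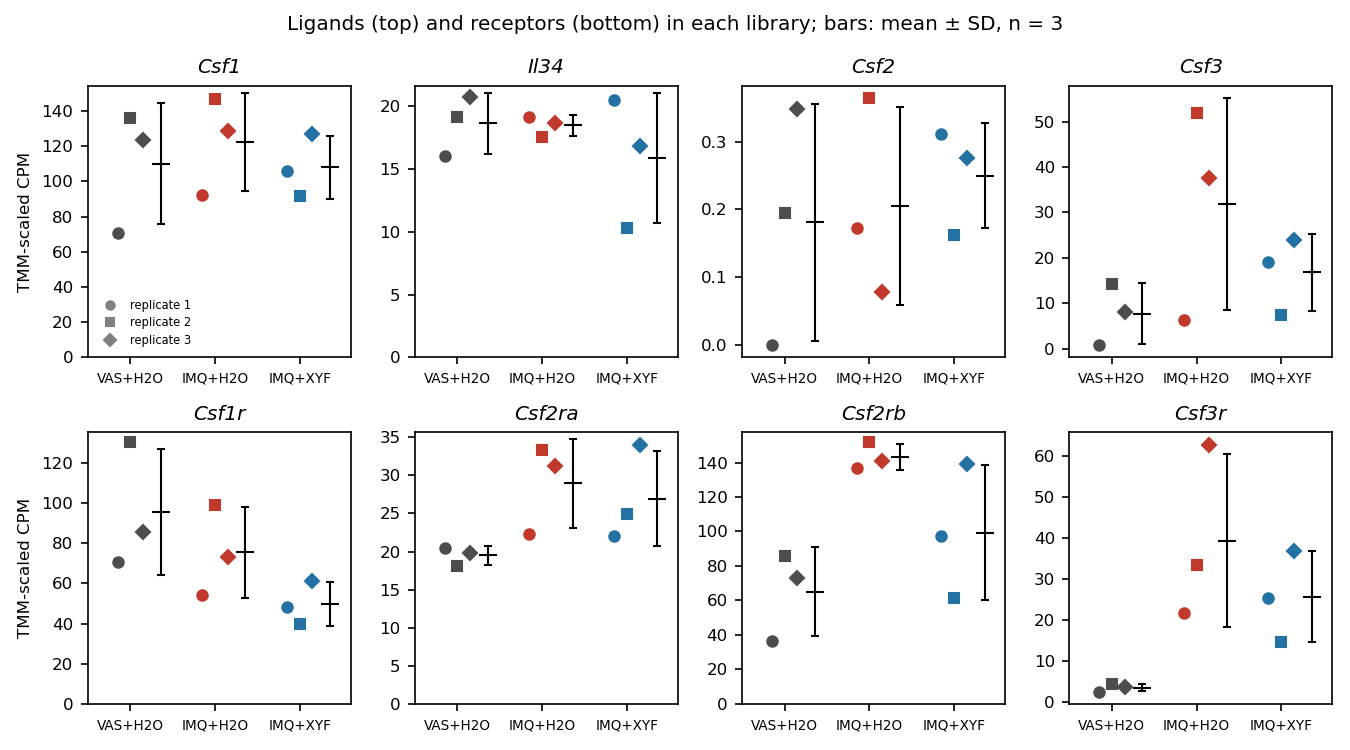
Level of each of the 8 members in each library, in TMM-scaled CPM on linear axes, with ligands in the upper row and receptors in the lower row. Each symbol is a library, its shape gives the replicate number, and the bars are the mean ± SD of 3 libraries. The 6 imiquimod libraries sit at 14.6 CPM or more for Csf3r, above all 3 controls, while the groups overlap for every ligand.

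Csf3r, the G-CSF receptor, was the 1 member called by edgeR. It stood at 2.43, 4.22 and 3.54 CPM in VAS+H2O, from 100, 152 and 264 counts. In IMQ+H2O it stood at 21.7, 33.4 and 62.7 CPM, and in IMQ+XYF at 25.2, 14.6 and 36.9 CPM. Every library that received imiquimod was above every control, and the IMQ+H2O and IMQ+XYF libraries overlapped. Csf3r rose 11.6-fold in IMQ+H2O against VAS+H2O, a log2 fold change of 3.53 (SE 0.48, adjusted p = 0.0213 by edgeR). It was the 1 member of 8 called in that comparison, in which 0.994% of all tested genes were called and 0.646% called higher. Against the same controls it rose 7.53-fold in IMQ+XYF, a log2 fold change of 2.91 (SE 0.47, adjusted p = 0.0299 by edgeR), again as the 1 member called, where 1.2% of tested genes were called and 0.695% called higher. The 3 control libraries are thus shared by these comparisons.

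The direction of the Csf3r rise held without any 1 library, but the call did not. For IMQ+H2O against VAS+H2O the log2 fold change ran from 3.04 to 3.82 when single libraries were dropped from the fit. The adjusted p of edgeR was 0.0596, 0.0690 and 0.0846 without VAS+H2O library 1, 2 and 3, and 0.0668 and 0.0615 without IMQ+H2O library 2 and 3. Without IMQ+H2O library 1 it was 0.0188. For IMQ+XYF against VAS+H2O the call was lost without any 1 of the controls, without IMQ+H2O library 2 and without IMQ+XYF library 1 or 3, with edgeR adjusted p from 0.0565 to 0.119. Over the whole table, 25 to 125 genes were called for IMQ+H2O against VAS+H2O without 1 library of those groups, against 223 with all. Csf3r (ENSMUSG00000028859) lies at chr4:126024550-126044440, and 11.2% of the 50-base stretches of its longest transcript also occur in other genes, so part of its reads could have been assigned elsewhere.

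The sum of neutrophil markers, genes of the cells that carry most Csf3r, was higher in every imiquimod library than in every control, as Csf3r was. Of 16 markers listed 12 were tested. In IMQ+H2O against VAS+H2O 7 were called higher, where 0.646% of all tested genes were, none was called lower and 5 did not pass. In VAS+H2O library 1, 7 of the 16 had no count. Some could thus pass the filter on low counts only through the imiquimod groups. This limits the count called too, and no median is given. Markers with counts numbered 9 to 13 per library in VAS+H2O, 12 to 15 in IMQ+H2O and 14 to 15 in IMQ+XYF. Fpr1, a receptor for bacterial peptides, rose by 5.81 on the log2 scale, and S100a8, an abundant neutrophil protein that stressed keratinocytes also make, by 5.22. Summed over the markers, the VAS+H2O libraries reached 8.20, 27.2 and 14.6 CPM, the IMQ+H2O libraries 222, 265 and 689 CPM, and the IMQ+XYF libraries 314, 185 and 489 CPM. Ly6g, the marker that defines mouse neutrophils, had no count in any VAS+H2O library or in IMQ+XYF library 2. IMQ+H2O library 3 was highest for both the sum and Csf3r, and IMQ+XYF library 2 was lowest for both among the libraries given imiquimod. The part of neutrophil number in the Csf3r rise was not tested. In bulk tissue, more cells of a type and more RNA per cell cannot be told apart.

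Csf1r, the receptor of Csf1 and Il34 on macrophages, was called in no comparison, and its log2 fold change was below 0 in each. Its level was 70.5, 131 and 85.6 CPM in VAS+H2O, 54.0, 99.0 and 73.3 CPM in IMQ+H2O, and 48.0, 40.0 and 61.2 CPM in IMQ+XYF. The 3 IMQ+XYF libraries were below all 3 controls, whereas IMQ+H2O overlapped both other groups. Between these groups the log2 fold change was -0.94 (SE 0.29), with an interval from -1.59 to -0.29, and it did not pass (adjusted p = 0.126 by edgeR). DESeq2 gave an adjusted p of 0.0361 at a log2 fold change of -0.91, which was still short of the size required for a call (3.46% of genes were called by that tool in this comparison). The same quantity was -0.34 for IMQ+H2O against VAS+H2O, from -0.98 to 0.30, and -0.60 for IMQ+XYF against IMQ+H2O, from -1.25 to 0.04. Csf1r (ENSMUSG00000024621) lies on chromosome 18, and 15.1% of its exonic bases overlap Hmgxb3 on the opposite strand, so without a stated use of strand the reads of that stretch cannot be assigned to 1 gene.

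Monocyte and macrophage markers, genes of the cells that carry Csf1r, were counted beside it. Of 18 listed and tested, Chil3, a lectin of inflammatory myeloid cells, was called higher in IMQ+H2O against VAS+H2O, at a log2 fold change of 4.45. None was called lower, and 0.646% of all tested genes were called higher. The median log2 fold change was 0.67, beside -0.02 over all tested genes. Summed, the markers reached 929 to 1416 CPM in VAS+H2O, 1433 to 1937 CPM in IMQ+H2O and 1113 to 1367 CPM in IMQ+XYF. The 3 IMQ+XYF values of Csf1r lay below the controls while the marker sums of those groups overlapped. None of the 18 was called in IMQ+XYF against IMQ+H2O, with a median of -0.48. Of them, 7 were lower without overlap, where 8.74% of all tested genes were, and the marker sums of these groups did not overlap. All 18 had counts in every library.

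Csf2ra, the GM-CSF-specific chain, had a narrow range in the controls. It stood at 20.5, 18.1 and 19.9 CPM in VAS+H2O, 22.3, 33.3 and 31.2 CPM in IMQ+H2O, and 22.0, 24.9 and 33.9 CPM in IMQ+XYF. All 6 libraries given imiquimod were above the 3 controls. The log2 fold changes against VAS+H2O were 0.57 in IMQ+H2O, from 0.12 to 1.01, and 0.47 in IMQ+XYF, from 0.02 to 0.91. Neither passed, with edgeR adjusted p of 0.156 and 0.250. IMQ+XYF differed from IMQ+H2O by -0.10, from -0.55 to 0.34. Csf2ra (ENSMUSG00000059326) lies at chr19:61223957-61228429.

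Csf2rb, the shared beta chain, had the highest mean per length of the 4 receptor genes among the members in both imiquimod groups. Its level was 36.4, 85.8 and 73.1 CPM in VAS+H2O, 137, 152 and 141 CPM in IMQ+H2O, and 97.2, 61.5 and 139 CPM in IMQ+XYF. The IMQ+H2O libraries lay close together and above all controls, while the IMQ+XYF libraries were spread from the level of the controls to that of IMQ+H2O. The log2 fold change for IMQ+H2O against VAS+H2O was 1.14 (SE 0.35), from 0.35 to 1.92, with an adjusted p of 0.126 by edgeR. DESeq2 called it, with an adjusted p of 0.0226, in a comparison where that tool called 3.88% of the genes it tested. IMQ+XYF against IMQ+H2O gave -0.53, from -1.30 to 0.25, and IMQ+XYF against VAS+H2O 0.61, from -0.17 to 1.39. Csf2rb (ENSMUSG00000071713) lies at chr15:78325752-78353847.

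Csf2rb2, the beta chain that in mice serves the IL-3 receptor alone, had nearly the same profile. It stood at 37.4, 82.1 and 82.9 CPM in VAS+H2O, 135, 139 and 123 CPM in IMQ+H2O, and 87.5, 56.7 and 125 CPM in IMQ+XYF. Its log2 fold change was 0.97 for IMQ+H2O against VAS+H2O, with an edgeR adjusted p of 0.161. The genes lie 20030 bases apart, and 18.4% of the 50-base stretches of the longest Csf2rb transcript recur in other genes, Csf2rb2 foremost. How reads that match both were counted is not given in the sources used here, so the split between the pair is uncertain.

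With Csf3r, Csf2ra and Csf2rb, 3 of 8 members were higher in every IMQ+H2O library than in every control, where 15.1% of all tested genes were. None was lower, against 16.5%. The median log2 fold change of the 8 members was 0.36. For IMQ+XYF against VAS+H2O, 2 members did not overlap and were higher, Csf3r and Csf2ra, where 11.7% of tested genes did so, and 1 was lower, Csf1r, where 10.3% did so.

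No member was called in IMQ+XYF against IMQ+H2O by edgeR, none had an unadjusted p under 0.05, and none was called by DESeq2, which called 1.14% of the genes it tested. In that comparison 0.00892% of tested genes were called and 11.7% had an unadjusted p under 0.05. The log2 fold change was below 0 for 7 of the 8 members, all but Csf2, with a median of -0.37 beside 0.01 over all tested genes. For Csf3r it was -0.62 (SE 0.43), from -1.60 to 0.36, an interval that holds both no change and falls larger than the size a call requires. With 1 library left out, the Csf3r value ran from -0.98 to -0.08. It was -0.08 without IMQ+H2O library 3 and -0.98 without IMQ+XYF library 3. No member had groups that did not overlap, where 18% of tested genes did. IMQ+XYF library 2 was the lowest of its group for 7 of the 8 members, all but Csf2ra.

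**Figure D2:**
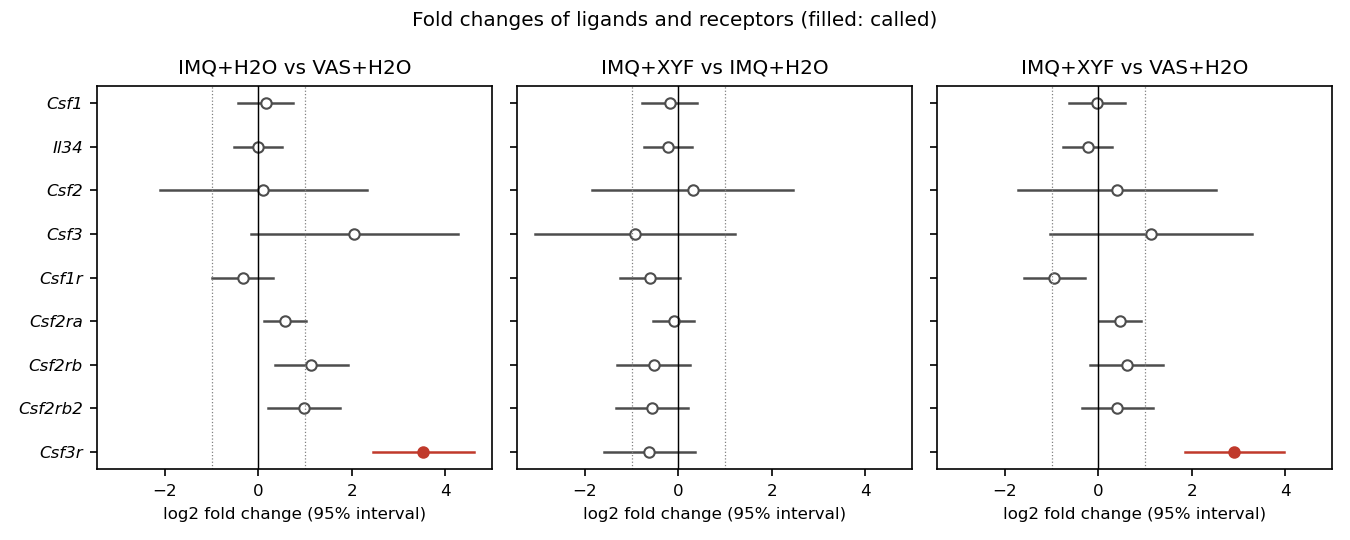
Log2 fold change of each member and of Csf2rb2 in the 3 comparisons, with 95% intervals from the edgeR fit, dotted lines at -1 and 1, and filled red points where a gene was called. Csf3r is called in the 2 comparisons against VAS+H2O, at 3.53 and 2.91, and no gene shown is called in IMQ+XYF against IMQ+H2O.

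Ranked by CPM per kilobase of exon, the control dermis was led by Csf1, at 20.9 ± 6.56 (SD, n = 3), and Csf1r, at 16.6 ± 5.41, which overlapped. Il34 followed at 9.50, below all Csf1r libraries, then Csf2rb at 8.95, Csf2ra at 6.79 and Csf3 at 5.45, and each of these overlapped the gene after it. Csf3r, at 0.941, overlapped Csf3 through the lowest Csf3 library, and Csf2 was last at 0.226, below all Csf3r libraries. The genes with the highest means are a ligand and its receptor, and the receptor of neutrophils was next to last. The order depends on the length used. For Csf2rb the union of exons is 7277 bases and the longest transcript 4900. By longest transcripts Csf2rb would rank above Il34 in the controls.

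In IMQ+H2O the order was Csf1 at 23.2, Csf3 at 22.6, Csf2rb at 19.7, Csf1r at 13.1, Csf3r at 10.9, Csf2ra at 10.1, Il34 at 9.42 and Csf2 at 0.256 CPM per kilobase. The neighbours whose libraries did not overlap were Csf2rb and Csf1r, and Il34 and Csf2. In IMQ+XYF it was Csf1 at 20.5, Csf2rb at 13.7, Csf3 at 11.9, Csf2ra at 9.39, Csf1r at 8.62, Il34 at 8.10, Csf3r at 7.09 and Csf2 at 0.312, and the last pair alone did not overlap. By the means Csf1 was thus first and Csf2 last in each group. Csf1 overlapped the next gene in every group, so which gene led was not resolved by these libraries, and in IMQ+H2O libraries 2 and 3 Csf3 was above Csf1.

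**Figure D3:**
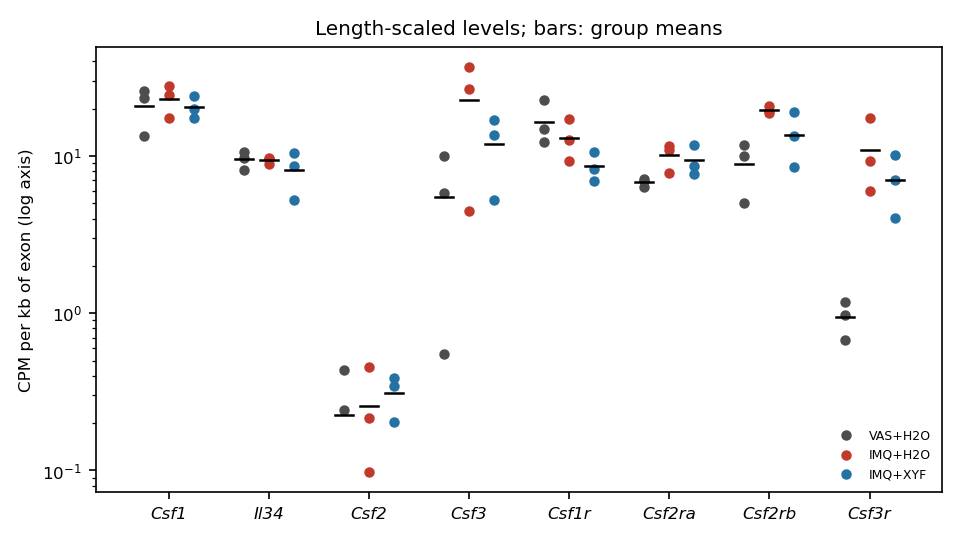
CPM per kilobase of exon of the 8 members on a log axis, with 1 point per library, colours for the groups and bars for group means. VAS+H2O library 1 has 0 counts of Csf2 and is not drawn. Csf2 is below every other member in all libraries drawn, and Csf3r rises from 0.941 in VAS+H2O to 10.9 in IMQ+H2O.

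Ratios within a library do not depend on its scaling. Csf3r to Csf1r, a neutrophil against a macrophage receptor, was 0.0550, 0.0518 and 0.0661 per kilobase in VAS+H2O. It was 0.643, 0.540 and 1.37 in IMQ+H2O, and 0.841, 0.586 and 0.963 in IMQ+XYF. No imiquimod library came near the controls, and IMQ+H2O library 3 was the only 1 of the 9 in which Csf3r exceeded Csf1r. On the log2 scale the means differed by 3.77 for either imiquimod group against VAS+H2O and by -0.0013 for IMQ+XYF minus IMQ+H2O. For each imiquimod group against VAS+H2O the exact two-sided permutation test gave p = 0.1, the smallest that 3 against 3 allows, and 0.4 after adjustment over 12 ratio tests.

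Of the other ratios, Csf2rb to Csf2ra, the chains of the GM-CSF receptor, was 2.43, 1.79 and 1.78 per kilobase in IMQ+H2O and 1.74, 0.975 and 1.62 in IMQ+XYF. The groups did not overlap, with a log2 difference of -0.50 (exact permutation p = 0.1, adjusted 0.4). In VAS+H2O the ratio was 0.701, 1.87 and 1.45, which overlapped both. Csf3 to Csf2 and Il34 to Csf1 overlapped between groups in every comparison, with exact permutation p from 0.2 to 0.7, where Csf2 in VAS+H2O library 1 was set to the floor of 3 counts.

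**Figure D4:**
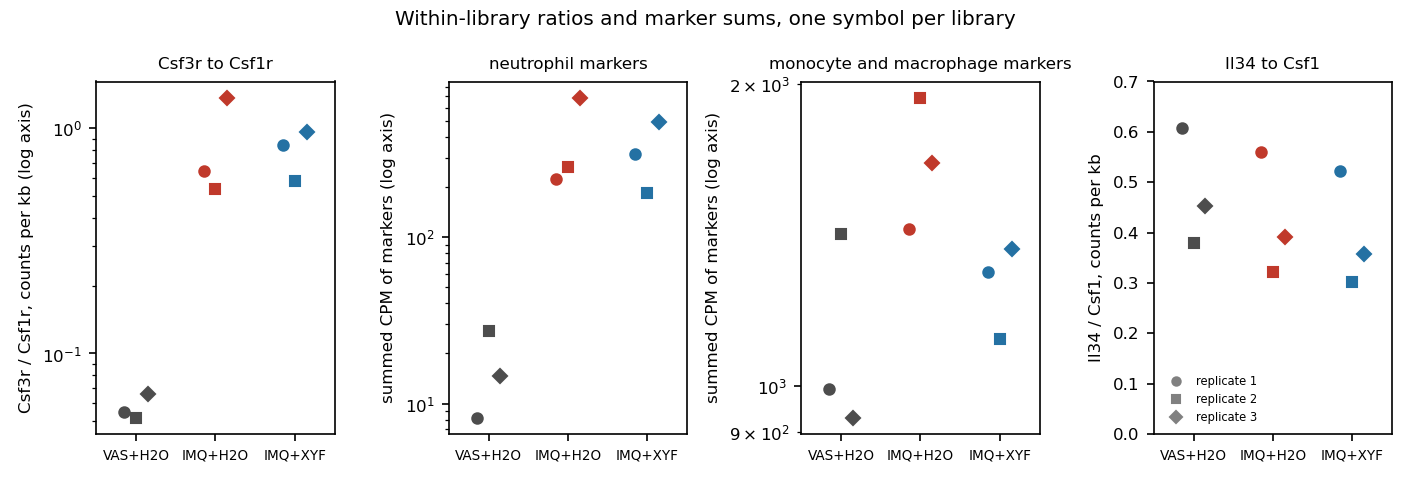
From left to right, the ratio of Csf3r to Csf1r per kilobase (log axis), the summed CPM of 16 neutrophil markers and of 18 monocyte and macrophage markers (log axes), and the ratio of Il34 to Csf1 per kilobase (linear axis). Each symbol is a library and its shape gives the replicate number. The first pair of panels separates the controls from all imiquimod libraries, and in the last panel the libraries numbered 1 are highest in each group.

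Partners of these factors at shared or related receptors include the cytokines IL-3 and IL-5. Of 11 listed genes 10 were tested and none was called in any comparison. In IMQ+H2O against VAS+H2O the median log2 fold change was -0.08. Il3ra, the specific chain of the IL-3 receptor, was 17.9 ± 2.90 CPM against 11.0 ± 2.32 (SD, n = 3 each), a log2 difference of 0.71 with an edgeR adjusted p of 0.138. Kit, the receptor of stem cell factor, had a log2 difference of -0.61 in IMQ+XYF against IMQ+H2O, and Flt3, which drives dendritic cell growth, one of -0.87. Their edgeR adjusted p were 0.382 and 0.379.

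Among 26 genes that relay the signal inside the cell, 2 were called higher in IMQ+H2O against VAS+H2O and none lower. Of all tested genes 0.646% were called higher there. The median of the 26 was 0.19, beside -0.02 over all tested genes. Fgr, a Src family kinase of myeloid cells, rose by 1.52 on the log2 scale. Fcer1g, an adaptor of activating receptors, rose from 38.5 ± 4.36 to 89.7 ± 23.3 CPM (SD, n = 3 each). Fgr was called when IMQ+XYF was set against VAS+H2O too, at 1.14, where 0.695% of all tested genes were called higher. The remaining 24 did not pass in IMQ+H2O against VAS+H2O, the Jak and Stat genes on the list among them. Both genes called are used by myeloid cells widely. The neutrophil sums and the monocyte and macrophage sums given above were also higher in every IMQ+H2O library than in every control. The part of cell number in these rises was not tested.

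None of 15 target and feedback genes of these receptors was called in any comparison. The median was -0.37 in IMQ+H2O against VAS+H2O, beside -0.02 over all tested genes, and 0.22 in IMQ+XYF against IMQ+H2O, beside 0.01. Osm, a cytokine induced through STAT5, had a log2 difference of 1.5 in the first of these with overlapping libraries. Egr1, an immediate early gene, was at 1282 ± 92.1 CPM in IMQ+H2O against 2252 ± 499 in VAS+H2O (SD, n = 3 each), a log2 difference of -0.81 with an edgeR adjusted p of 0.0854. Between these groups 5 of the 15 were lower without overlap, where 16.5% of all tested genes were, and 1 was higher, where 15.1% were. The sums did not overlap, at 4126 to 4967 CPM in IMQ+H2O and 6355 to 8533 CPM in VAS+H2O. The mean over the 15 of log2 CPM, each set against its own mean over all libraries, did overlap.

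Of 14 tested transcription factors of myeloid cells, 1 was called higher in IMQ+H2O against VAS+H2O and none lower. Of all tested genes 0.646% were called higher there. The factor called was Spi1, which encodes PU.1, at a log2 fold change of 1.06. Its level was 46.8 ± 9.02 against 22.4 ± 3.84 CPM (SD, n = 3 each). The median over the 14 was -0.27, beside -0.02 over all tested genes. Of the 14, 3 were below all controls, where 16.5% of all tested genes were, and 1 was above, where 15.1% were. The summed level of the list was 1732 to 2410 CPM in IMQ+H2O and 2452 to 3586 CPM in VAS+H2O, which did not overlap. The mean over its genes of log2 CPM, each set against its own mean over all libraries, did overlap. It ran from -0.32 to 0.21 in IMQ+H2O and from -0.15 to 0.42 in VAS+H2O. Of 10 tested upstream cytokines, which induce colony-stimulating factors in skin cells, Il33, an alarmin, was called higher in both imiquimod groups against VAS+H2O, at 2.39 and 2.21. In these comparisons 0.646% and 0.695% of all tested genes were called higher. The median of these cytokines was 0.58 in IMQ+H2O and 1.72 in IMQ+XYF against VAS+H2O, beside -0.02 over all tested genes in each. Il1b, a strong inducer of Csf3, was 116 ± 69.7 CPM in IMQ+H2O against 39.8 ± 33.4 in VAS+H2O, with overlapping libraries and a log2 difference of 1.55. Il17a had no count in any control or in IMQ+H2O library 1, where 0 allows 0.0381 to 0.104 CPM per library. It had counts in the remaining libraries, with means of 0.146 ± 0.175 CPM in IMQ+H2O and 0.187 ± 0.0636 CPM in IMQ+XYF (SD, n = 3 each). Between IMQ+XYF and IMQ+H2O neither of these lists had a gene called, while the median of the upstream cytokines was 0.67 and 3 of the 10 were higher without overlap, where 9.22% of all tested genes were. The largest of these differences was that of Il1a, at 1.71 (edgeR adjusted p = 0.436). The summed level of the upstream cytokines listed overlapped, at 120 to 316 CPM in IMQ+XYF and 144 to 364 CPM in IMQ+H2O. The mean of log2 CPM over that list, taken as above, overlapped between these groups too. It was highest in IMQ+XYF library 1, which also had the highest keratinocyte sum. The part of keratinocyte RNA in these differences was not tested.

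Markers of other tissue in the ear differed between libraries as well. The 5 endothelial markers summed to 457 to 764 CPM in VAS+H2O, 964 to 1038 in IMQ+H2O and 371 to 924 in IMQ+XYF. IMQ+XYF library 2, lowest in its group for most members, was also lowest for this sum. The 5 skeletal muscle markers ran from 58.4 to 946 CPM over all libraries. In IMQ+XYF against IMQ+H2O, where 7 of 8 members had differences below 0, marker lists of several tissues differed too. All 6 keratinocyte markers had an unadjusted p under 0.05, with a median log2 difference of 1.38, and 4 of 5 muscle markers were lower without overlap, with a median of -1.71. Of the 5 endothelial markers 4 were lower without overlap (median -0.62), and all 4 tested cartilage markers were higher (median 1.54). Over all tested genes 8.74% were lower without overlap in this comparison. By the adjusted test, none of the endothelial, muscle, fibroblast, keratinocyte, T cell, or eosinophil and mast cell markers was called in any comparison. Col2a1, a collagen of cartilage, fell by 2.70 on the log2 scale in IMQ+H2O against VAS+H2O, and Ccr7, of migrating dendritic cells, rose by 2.86. Ccr7 was the 1 called of 8 Langerhans and dendritic cell markers, where 0.646% of all tested genes were called higher. The median of these markers was 0.03, beside -0.02 over all tested genes. Their sums overlapped, at 57.0 to 89.6 CPM in IMQ+H2O and 49.2 to 83.5 CPM in VAS+H2O. The part of these tissues in the members' levels was not tested.

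The genes most like each member in profile were ranked by Pearson's r of log2 CPM over the 9 libraries, among 14507 genes with a mean of at least 1 CPM. The points share library, group and tissue composition, so r is a description. For Csf3r they were Pfn1 (r = 0.994), Tarm1 (0.993) and Cd300lf (0.990). For Csf3 they were the chemokine genes Ccl7 (0.976), Cxcl1 (0.971) and Ccl2 (0.971). For Csf1 they were Il6 (0.967), Gpr65 (0.963) and Tnfaip6 (0.954). For Csf1r they were Cd209a (0.980), Nceh1 (0.976) and Cd209d (0.968), of which Cd209a and Cd209d encode lectins of dendritic cells and macrophages. Csf2rb was closest to Csf2rb2 (0.987), then Tgm2 (0.979) and Cyyr1 (0.976). The leading genes were Plod3 for Csf2ra (0.969), Vkorc1l1 for Il34 (0.955) and Palld for the sparse Csf2 (0.941).

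Among the members themselves, the ligands Csf1 and Csf3 had r = 0.883 over the 9 libraries, and Csf3r had r = 0.823 with Csf2rb and 0.818 with Csf2ra. For a ligand and its receptor, r was 0.581 for Csf1 and Csf1r, 0.752 for Csf3 and Csf3r and 0.494 for Il34 and Csf1r. With the sparse Csf2 it was 0.197 for Csf2ra and 0.598 for Csf2rb. Csf1r and Csf3r had r = -0.34.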

How the data were processed

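Messenger RNA was sequenced from mouse ear dermis, 3 libraries per group, grouped by the labels. The authors deposited whole-number counts of reads per Ensembl gene, with no normalization. Per the study's methods and processing notes they aligned reads with STAR (2.5 in the notes) to GRCm38, assembled transcripts with StringTie and tested with DESeq2. The labels call the libraries strand-specific, while the kit named in the methods does not mark strand. The tool that made the counts and its use of strand and of reads with several alignments are not given in the sources used here. The counts were fitted in edgeR 4.0.16 (R 4.3.3) after filterByExpr and TMM scaling, with all 9 libraries in 1 quasi-likelihood fit and 1 coefficient per group, and Benjamini-Hochberg adjustment over 22430 genes. Calls needed an adjusted p of at most 0.05 and an absolute log2 fold change of at least 1, the limits of the study's methods. Standard errors were derived from the fold change and its F statistic. CPM per kilobase used the union of GENCODE vM21 exons, and 52403 of 52550 identifiers matched. The fit was tested on simulated data. Alternatives were DESeq2 1.42.0, its size factors in edgeR, other filters on low counts, a replicate block, fits of 2 groups and leaving out each library. Replicates differed beyond counting error (chi-squared over its degrees of freedom between 37.5 and 218). A gene of the list of signal relay genes is not reported here and was left out of its counts and median. The table held 165 of 168 listed symbols as written, and Il36a, Il36b and Il36g as Il1f6, Il1f8 and Il1f9. From each list, called genes and the 2 tested genes with the largest absolute log2 fold change in IMQ+H2O against VAS+H2O and in IMQ+XYF against IMQ+H2O could be named, and for likeness the 3 genes with the highest r, Gm and Rik symbols left out. Il1b, Il5, Kit and Ly6g were named outside that rule, after their values were seen. The members and lists were chosen with earlier results of these data known. Sequences are from RefSeq promoters on GRCm38.p6.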

Additional observations from a re-analysis of the deposited data

How the results depend on the processing

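The direction of Csf3r, Csf3, Csf1r, Csf2rb and Csf2rb2 held in all 3 comparisons under all 15 alternatives. In IMQ+H2O against VAS+H2O the members called numbered 2 with DESeq2, which added Csf2rb, and 0 to 1 when 1 library was left out. With IMQ+XYF against VAS+H2O they numbered 0 with the replicate block and 0 in the fit of only the 2 groups compared, where the edgeR adjusted p of Csf3r was 0.0512 and 0.0598, and 0 to 1 with 1 library left out. With IMQ+XYF against IMQ+H2O they numbered 0 throughout. Over all tested genes, same-numbered libraries did not deviate together, with r from -0.18 to 0.12. Such values cannot settle whether the numbers pair the libraries. Over all genes, those called in IMQ+H2O against VAS+H2O were 223, against 945 with DESeq2, 496 in the fit of 2 groups, 86 with the replicate block and 25 to 455 with 1 library left out. The counts for IMQ+XYF against VAS+H2O were 270, against 701, 33, 54 and 12 to 592. The counts for IMQ+XYF against IMQ+H2O were 2, against 223, 1, 0 and 0 to 4, and 1 with a minimum of 1 CPM in 3 libraries.

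Fold changes near 0 reversed. In IMQ+H2O against VAS+H2O Il34 was 0.00827 with DESeq2, 0.0146 with its size factors in edgeR, 0.0289 with the minimum of 1 CPM, 0.0158 in the fit of 2 groups, and -0.12 to 0.0691 with 1 library left out. For IMQ+XYF against VAS+H2O Csf1 was 0.0026 with DESeq2, 0.0290 with the replicate block, and -0.26 to 0.15 with 1 library left out. With 1 library left out, Csf1 ran from -0.0873 to 0.33 in IMQ+H2O against VAS+H2O, and Csf2 from -0.64 to 1.08. In IMQ+XYF against IMQ+H2O the ranges were -0.0880 to 1.06 for Csf2, -0.44 to 0.0452 for Il34 and -0.30 to 0.0245 for Csf2ra. In IMQ+XYF against VAS+H2O they were -0.13 to 1.39 for Csf2 and -0.46 to 0.0536 for Il34. The log2 ratios that reversed were Il34 to Csf1 (-0.33 to 0.11) and Csf3r to Csf1r (-0.27 to 0.40) in IMQ+XYF against IMQ+H2O, and Csf2rb to Csf2ra (-0.23 to 0.47) in IMQ+XYF against VAS+H2O. The causes were not tested. Depth limits Csf2, whose highest count was 26.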

Other observations

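The ratio of Il34 to Csf1 per kilobase was ordered by replicate number in the same way in each group. In the libraries numbered 1 it was 0.608 in VAS+H2O, 0.560 in IMQ+H2O and 0.523 in IMQ+XYF. In those numbered 3 it was 0.452, 0.392 and 0.358, and in those numbered 2 it was 0.379, 0.322 and 0.303. The labels do not say that a number marks a shared animal, litter or day, and this was noticed after the values were seen. The spread between numbers was wider than the difference between groups of 1 number.

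Eosinophils depend on IL-5, whose receptor uses the Csf2rb chain. Il5 had a mean of 0.330 CPM in VAS+H2O and 0.230 CPM in IMQ+H2O, with overlapping libraries. Ms4a2, a chain of the IgE receptor on mast cells, was 1.55 ± 0.412 CPM in IMQ+XYF and 9.20 ± 6.96 CPM in IMQ+H2O (SD, n = 3 each), with no overlap, and did not pass (edgeR adjusted p = 0.360).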
